A study of Schizosaccharomyces pombe with 72 samples.

Results

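The prl RNAs of fission yeast (Schizosaccharomyces pombe) are transcripts that carry a poly(A) tail but hold no long open reading frame. They were followed by RNA sequencing as the rows of the deposited count table whose identifier begins with SPNCRNA and whose symbol is prl and a number. This rule took 47 of the 7014 gene rows, and the other 1488 of the 1535 non-coding rows serve below as the closest set to read them against. Non-coding transcripts of this yeast are made by RNA polymerase II, are often antisense to or divergent from coding genes, and are commonly destroyed in the nucleus by the exosome, an RNA-degrading complex. Some are recognised by Mmi1, an RNA-binding protein that delivers transcripts with copies of the motif TNAAAC to the exosome. Individual members of the prl family have no role that is given here, so they are described by position, sequence and level.

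The study asked how a cohesin loader and the TORC1 growth-signalling complex act on gene expression in cycling and resting cells. Its 72 libraries came from 6 growth conditions, each with 4 numbered strains and 3 biological replicates. The genotypes were wild type, mis4-G1487D (Mis4 loads cohesin on chromosomes), mip1-R401G (Mip1 is the Raptor subunit of TORC1) and the double mutant, but which number carries which genotype is not given in the sources used here. Strains are therefore called 86, 92, 93 and 97, and no difference below is assigned to an allele. Cells labelled T4D36.5 and T4D25 were quiescent cells kept for 4 further days at 36.5°C and at 25°C after nitrogen deprivation. Those labelled T0-N were the cultures they were taken from, grown in synthetic medium and deprived of nitrogen for 24 hr at 25°C. The labels V36.5 and V25 stand for vegetative cells cycling in rich medium, shifted to 36.5°C for 1 doubling or kept at 25°C. G1_36.5 stands for cells held in G1 at 36.5°C, and these came from another set of strains (82, 83, 84 and 85) that all carry cdc10-129, a temperature-sensitive allele of a subunit of the transcription factor that drives entry into S phase. The G1 arrest thus differs from V36.5 in strain background as well, and T0-N differs from V25 in medium as well as in nitrogen. Within each pair these cannot be told apart.

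Of the 47 rows, 20 lie on chromosome I, 17 on II and 10 on III. Their exons summed to between 147 and 1852 bases with a median of 429, against 1051 for the other non-coding rows, and 44 of them have 1 exon and 3 have 2. The median GC content was 31.8%, against 35% for the other non-coding rows. The longest open reading frame had a median of 30 codons, against 47, and passed 100 codons only in prl25, with 102. TNAAAC was found on the transcribed strand of 30 prl rows (63.8%) and of 81.5% of the other non-coding rows, and per kilobase the medians were 1.82 and 1.88 copies.

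The annotated 5′ ends of 3 RNAs with large or contrasting values are shown first, because the results below turn on them. Each is read 5′ to 3′ on its own strand from the ASM294v3 reference of RefSeq, whose coordinates for 45 of the 47 rows equal those in the table, and capitals mark TNAAAC. prl34 (SPNCRNA.34, 373 bases) had the largest rise with heat in quiescent cells, and its first 300 bases lie at II:835871-836170 on the plus strand. prl58 (SPNCRNA.58, 447 bases) had the highest level per kilobase as a mean over all 72 libraries and begins at I:1393229-1393528 on the minus strand. prl4 (SPNCRNA.04) differed between strains and is shown whole, 253 bases at II:3295176-3295428 on the minus strand.
prl34: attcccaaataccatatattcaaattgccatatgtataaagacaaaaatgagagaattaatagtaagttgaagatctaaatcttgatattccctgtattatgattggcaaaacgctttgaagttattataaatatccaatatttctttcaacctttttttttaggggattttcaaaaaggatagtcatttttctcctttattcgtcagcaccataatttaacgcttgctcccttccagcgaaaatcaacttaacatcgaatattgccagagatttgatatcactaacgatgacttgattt
prl58: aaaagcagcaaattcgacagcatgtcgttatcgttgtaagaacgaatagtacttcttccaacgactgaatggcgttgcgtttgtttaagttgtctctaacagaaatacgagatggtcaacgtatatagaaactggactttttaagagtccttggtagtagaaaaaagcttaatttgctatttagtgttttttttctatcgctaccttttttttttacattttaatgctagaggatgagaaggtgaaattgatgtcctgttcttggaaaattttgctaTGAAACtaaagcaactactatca
prl4: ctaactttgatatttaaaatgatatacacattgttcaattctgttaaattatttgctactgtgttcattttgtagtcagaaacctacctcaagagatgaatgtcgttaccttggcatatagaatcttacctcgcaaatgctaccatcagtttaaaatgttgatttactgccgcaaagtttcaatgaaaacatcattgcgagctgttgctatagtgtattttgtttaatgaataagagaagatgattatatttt

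Of these stretches, that of prl58 holds 1 TNAAAC, and those of prl34 and prl4 hold none. The promoter windows of 4 members, from 250 bases before to 50 bases after the annotated start, follow because these members moved between conditions. Capitals mark any of 5 motifs on either strand. TATAAA is a core promoter element that positions transcription. TGACGT lies in sites of the stress factor Atf1. GAANNTTC is an element of heat-shock factor. GTAAACA is bound by forkhead factors. AGATAA is bound by the zinc-finger factors that respond to nitrogen. The windows lie at II:835621-835920 for prl34 (plus strand), I:1393479-1393778 for prl58 (minus), III:1513812-1514111 for prl51 (plus) and I:2886743-2887042 for prl56 (minus), all in ASM294v3.
prl34: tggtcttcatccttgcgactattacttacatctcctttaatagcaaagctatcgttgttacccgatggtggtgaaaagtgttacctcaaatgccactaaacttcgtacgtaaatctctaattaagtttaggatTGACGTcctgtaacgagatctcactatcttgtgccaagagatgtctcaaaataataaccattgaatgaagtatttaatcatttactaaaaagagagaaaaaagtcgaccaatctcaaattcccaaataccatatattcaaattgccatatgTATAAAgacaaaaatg
prl58: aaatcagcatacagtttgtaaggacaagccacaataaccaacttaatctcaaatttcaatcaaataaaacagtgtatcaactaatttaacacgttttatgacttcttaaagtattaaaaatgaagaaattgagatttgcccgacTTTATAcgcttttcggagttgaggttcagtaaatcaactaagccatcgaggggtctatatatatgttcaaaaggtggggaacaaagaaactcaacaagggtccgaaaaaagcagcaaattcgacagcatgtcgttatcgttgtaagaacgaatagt
prl51: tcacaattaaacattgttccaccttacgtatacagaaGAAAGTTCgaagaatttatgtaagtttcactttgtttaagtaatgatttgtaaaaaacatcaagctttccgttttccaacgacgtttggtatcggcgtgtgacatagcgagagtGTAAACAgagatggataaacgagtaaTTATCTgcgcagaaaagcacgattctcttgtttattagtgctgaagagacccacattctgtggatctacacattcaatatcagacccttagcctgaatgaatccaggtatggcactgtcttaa
prl56: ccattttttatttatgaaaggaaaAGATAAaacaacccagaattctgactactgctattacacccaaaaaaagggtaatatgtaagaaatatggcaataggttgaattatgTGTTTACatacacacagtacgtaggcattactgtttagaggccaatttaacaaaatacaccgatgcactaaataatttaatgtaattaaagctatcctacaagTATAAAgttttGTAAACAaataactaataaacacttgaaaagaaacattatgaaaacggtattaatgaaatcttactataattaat

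The window of prl34 held TGACGT at bases -117 to -112 from the annotated start. Its TATAAA lay at bases 34 to 39, after the start and within the annotated transcript. Over the family, TATAAA was found in 44.7% of the windows (49% of all 6966 windows of the table), TGACGT in 8.5% (6.2%) and GAANNTTC in 14.9% (11%). GTAAACA was found in 12.8% (15.7%) and AGATAA in 29.8% (23.8%). These are matches of letters, and binding was not measured.

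The family yielded 24346 counts over the 72 libraries, of which prl15 gave 5853 and prl58 5418. There were 13 rows with 0 counts in every library, namely prl2, prl3, prl11, prl19, prl20, prl23, prl26, prl28, prl35, prl45, prl52, prl57 and prl62. Of these, 12 lay more than 99% within another gene annotated on the same strand. Among the 12 rows that are covered in full on their own strand, 11 had no count, and the exception was prl32 with 135. Among the 29 rows with no gene over them on the same strand, only prl11 had none. The same held for the other non-coding rows, where 88 of 89 fully covered rows and 19 of 1000 uncovered rows had 0 counts. How reads that fall in more than 1 gene were counted is not given in the sources used here, so a 0 in a covered row is no measure of its RNA.

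**Figure D1:**
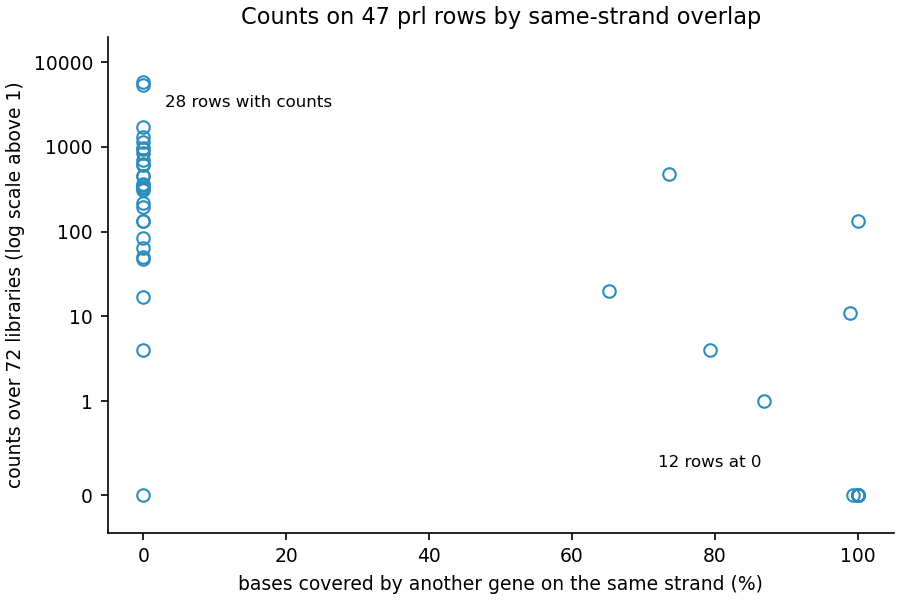
Total counts of each of the 47 prl rows over 72 libraries (vertical axis, 0 and then a log scale) against the percentage of its exon covered by another gene on the same strand (horizontal axis). Of the 13 rows at 0 counts, 12 stand at over 99% coverage, and prl11 has no overlap. Among rows at full coverage, prl32 alone has counts (135).

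On the opposite strand, 30 of the 47 rows (63.8%) overlap a gene, against 76.1% of the other non-coding rows, and 10 rows have no gene on either strand. prl34, for example, lies wholly opposite SPBC36.01c and still had 1708 counts.

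Depth was modest for RNAs of this level. The libraries held 1173880 to 7664476 gene counts with a median of 4021412, and the medians of T4D36.5 (2403681) and V25 (2930863) were the lowest of the 6 conditions. A floor of 3 counts corresponds to 0.329 to 2.50 CPM (counts scaled to a common library size with TMM factors), so that many prl values below are near the limit of 1 library. This floor and the count intervals below cover counting error only. Ribosomal RNA genes took 5.93% to 19.6% of gene counts. The conditions carried their marker genes, since 5 of 5 heat-shock genes were higher in V36.5 than in V25, 4 of 5 nitrogen-deprivation genes were higher in T0-N than in V25, and 5 of 5 genes of S-phase entry were lower in G1_36.5 than in V36.5. In T4D36.5, by contrast, only 1 of the 5 heat-shock genes was higher than in T4D25 and 1 was lower.

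Summed over the family, prl RNA had the lowest CPM in cells cycling at 25°C. The lowest, median and highest sums were 77.0, 134 and 214 CPM in T4D36.5, 70.0, 93.3 and 110 CPM in T4D25, and 71.6, 124 and 168 CPM in T0-N. They were 74.5, 90.9 and 112 CPM in G1_36.5, 40.0, 56.3 and 64.2 CPM in V36.5, and 14.7, 22.0 and 25.4 CPM in V25. All 12 sums of V25 were thus below every sum of the other conditions, and those of V36.5 were below every sum of G1_36.5, T0-N, T4D25 and T4D36.5. Such sums were not computed for the other non-coding rows, so the separation cannot be called particular to the family. Those rows also rose from V25, with median log2 changes of 0.75 in V36.5 and 0.90 in T0-N. CPM are relative to the other RNAs of a library, so a higher value cannot be told apart from less RNA of other genes in the cell. Spike-in RNAs took 1.83% to 11.7% of counts in T4D36.5 and 1.46% to 4.12% in T4D25. Their bearing on the differences between these conditions was not tested.

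**Figure D2:**
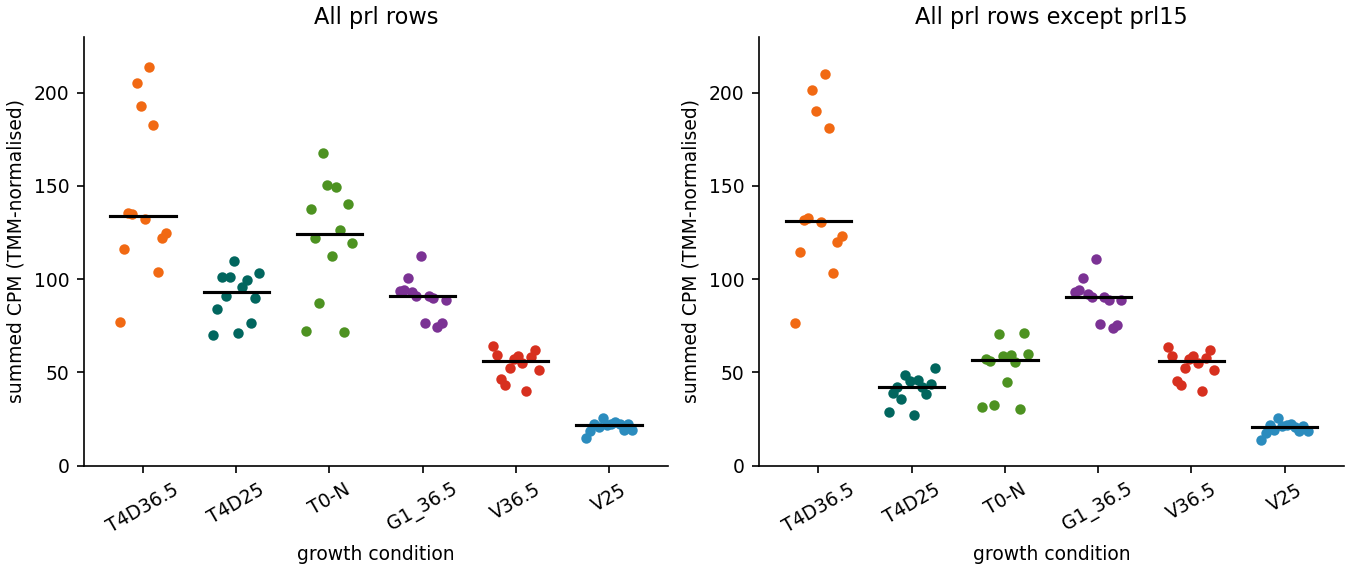
Summed CPM of the 47 prl rows in each of the 72 libraries by growth condition, with 12 points and a bar at the median per condition, and the same sum without prl15. V25 is lowest at a median of 22.0 CPM, and without prl15 the medians of T4D25 and T0-N are 42.1 and 56.7 CPM while that of T4D36.5 is 131 CPM.

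A single RNA carried much of the sum in the starved cultures at 25°C. prl15 made up 49.1% to 62.1% of the family's CPM in T4D25 and 49.3% to 62.9% in T0-N, but 0.533% to 2.61% in T4D36.5. Without it, the medians of the sums were 131 CPM in T4D36.5, 42.1 CPM in T4D25, 56.7 CPM in T0-N, 90.3 CPM in G1_36.5, 56.3 CPM in V36.5 and 21.0 CPM in V25. Per kilobase of exon and averaged over all libraries, prl58 stood highest at 37.8 CPM per kb, followed by prl15 at 28.7, prl34 at 23.0, prl51 at 18.3 and prl4 at 11.6. This order pools conditions that differ, since prl58 led in G1_36.5, V36.5 and V25, prl34 in T4D36.5 (108 CPM per kb against 27.5 for prl58) and prl15 in T4D25 (70.2 against 18.7) and T0-N (96.7 against 38.7). The 34 rows with any count were sorted by the condition of their highest mean. This was T4D36.5 for 12 rows, G1_36.5 for 11, T0-N for 8, T4D25 for 2, V36.5 for 1 and V25 for none. For 21 rows no condition had a lower mean than V25, but some of these tied at 0, as prl12 did in V25 and V36.5. Some of the 34 rows held very few counts (prl39 had 1). The same sorting was not done for other rows, so it describes these rows only.

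**Figure D3:**
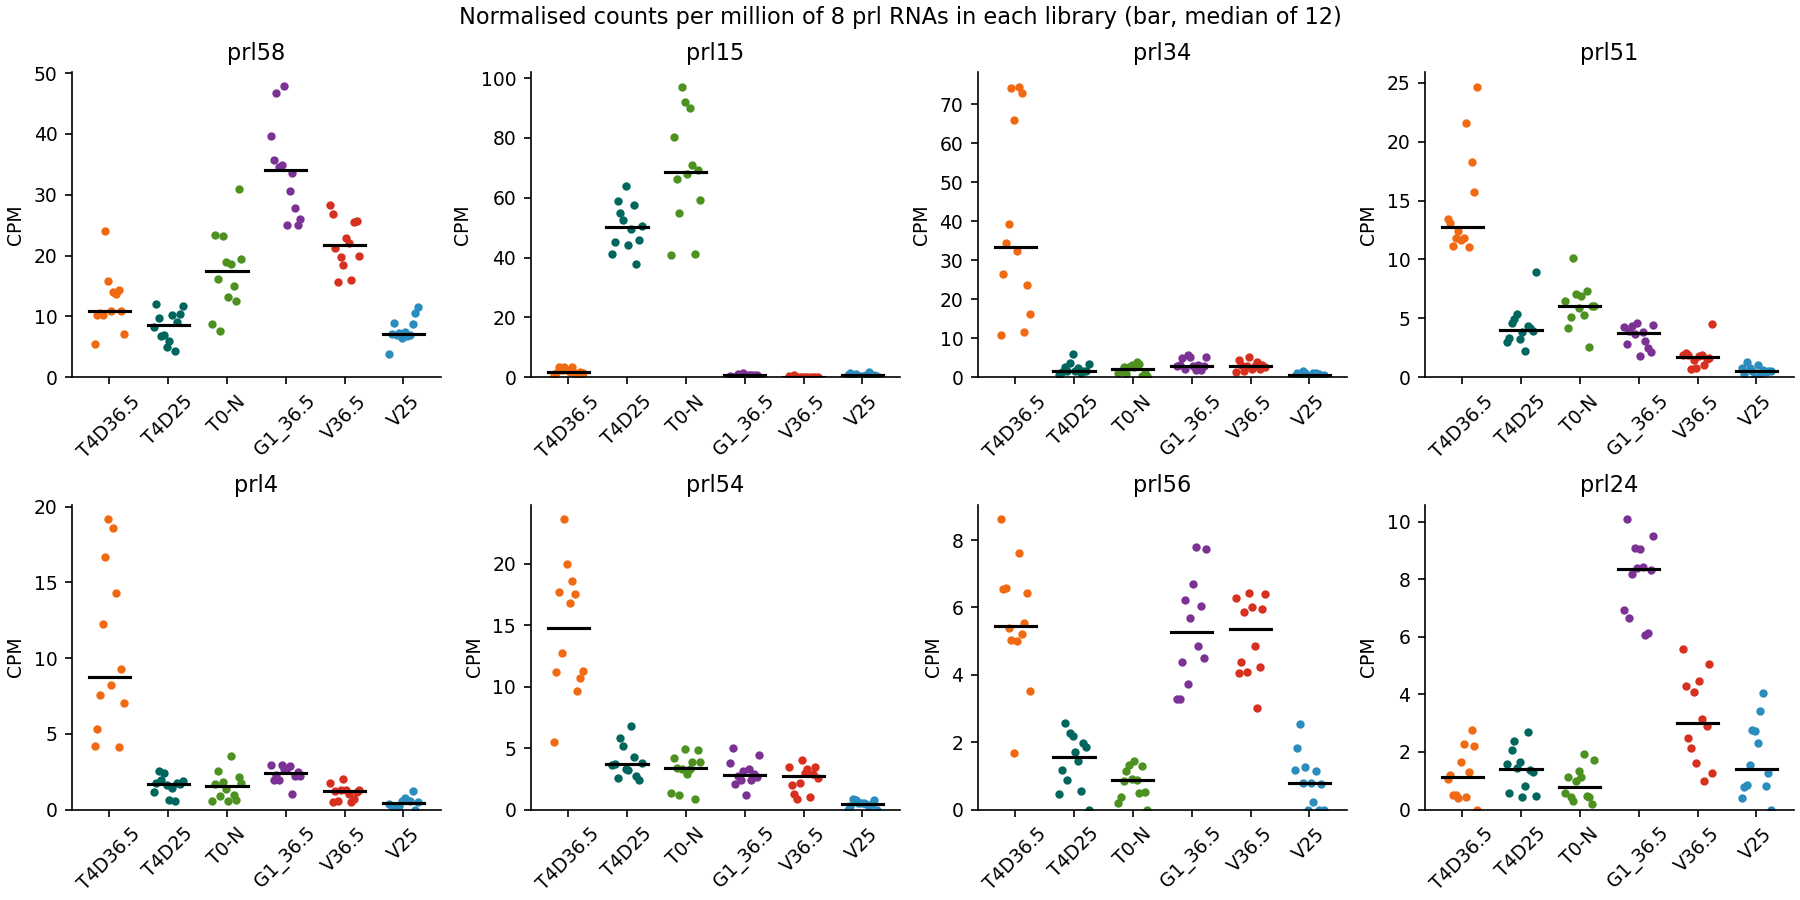
CPM of 8 prl RNAs in each library by growth condition (linear scale from 0 in each panel, 12 libraries per condition, bars at the medians). prl15 stands high only in T0-N and T4D25, prl34, prl51 and prl4 are highest in T4D36.5, and prl58 and prl24 are highest in G1_36.5.

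Fold changes were tested across all genes, and 19 prl rows passed the filter on low counts in the 60 libraries of strains 86, 92, 93 and 97 (prl4, prl9, prl12, prl13, prl15, prl21, prl24, prl33, prl34, prl36, prl40, prl42, prl43, prl47, prl51, prl54, prl56, prl58 and prl66). A further 1, prl50, was tested between G1_36.5 and V36.5 and for strain differences in G1_36.5. The other 27 rows entered no comparison of growth conditions, being either at 0 (13 rows) or at 1 to 217 counts in all (14 rows, prl14 highest). Of these, prl14 and prl22 were tested for strain differences alone, in G1_36.5 and T0-N. A row can pass the filter through the one condition in which it is high. The counts of called rows and the medians below thus describe the rows that passed and not the family. Where a median with no filter is given, it was not taken for the other non-coding rows.

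The first comparison asked what 1 doubling at 36.5°C does to cycling cells. prl56 had 3.00, 5.37 and 6.42 CPM (lowest, median and highest) in V36.5, against 0, 0.774 and 2.54 CPM in V25. prl54 had 0.890, 2.73 and 4.01 CPM in V36.5, against 0, 0.464 and 0.846 CPM in V25, and prl58 had 15.7, 21.7 and 28.3 CPM in V36.5, against 3.88, 7.17 and 11.5 CPM in V25. For these 3 RNAs the groups did not overlap. The share of all rows without overlap was not counted, here or in later comparisons, so non-overlap describes only the rows named. On the log2 scale and as a mean of the 4 strains, prl56 was higher by 2.77 (standard error 0.30, adjusted p = 3.96e-11), prl54 by 2.50 (0.39, 2.7e-07) and prl58 by 1.57 (0.18, 1.46e-10). prl34 had 1.40, 2.98 and 5.22 CPM in V36.5, against 0, 0.678 and 1.55 CPM in V25, with 11 of 12 libraries of V36.5 above all of V25 (log2 fold change 1.99, standard error 0.38, adjusted p = 1.07e-05). prl66 had 0, 0.423 and 1.42 CPM in V36.5, against 0, 0 and 0.523 CPM in V25, so that most of its values rest on very few reads. Its log2 change of 1.95 (standard error 0.63, adjusted p = 0.00695) was no longer called without replicate 1 (1.70, adjusted p = 0.0783).

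prl15 was the exception. It had 0, 0 and 0.625 CPM in V36.5, against 0, 0.771 and 1.73 CPM in V25, overlapping groups in which no library passed 2 counts in V36.5 or 6 in V25. On the log2 scale the change was -3.06 (standard error 0.63, adjusted p = 4.92e-05), and the ratio of the pooled counts (5 in V36.5 and 27 in V25) after scaling was 0.133 with a 95% interval from 0.0399 to 0.349. In all, 15 of the 19 tested rows were called higher, where 35.4% of all 6336 tested rows were higher, and prl15 alone was called lower, where 28% of all rows were lower. Non-coding rows outside the family were higher in 56.5% and lower in 9.57%. The median log2 change was 1.56 over the 19 rows, 0.75 over the other non-coding rows and 0.05 over all rows. With no filter on low counts it was 1.04 over 34 prl rows. Rows below the expression level asked of named members reached larger changes, with prl47 at 3.54 (standard error 0.71, adjusted p = 3.42e-05) on 51 counts in V36.5 and 4 in V25. Without replicate 1 only 15 prl rows passed the filter and 10 were called.

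The second comparison set cells deprived of nitrogen for 24 hr beside cycling cells at the same temperature. prl15 (SPNCRNA.15, 715 bases) had 40.8, 68.5 and 97.1 CPM in T0-N, against 0, 0.771 and 1.73 CPM in V25, the widest gap between non-overlapping groups in the family. The log2 change was 6.50 (standard error 0.21, adjusted p = 3.58e-29), and pooled counts gave a ratio of 92.6 with a 95% interval from 63.6 to 141. prl51 had 2.56, 6.05 and 10.1 CPM in T0-N, against 0, 0.517 and 1.27 CPM in V25, again without overlap (log2 fold change 3.33, standard error 0.26, adjusted p = 2.26e-16). prl66 had 0.758, 2.66 and 3.46 CPM in T0-N, against 0, 0 and 0.523 CPM in V25, and these groups did not overlap either (3.82, standard error 0.48, adjusted p = 1.1e-09). prl40 had 0.289, 2.15 and 3.41 CPM in T0-N, against 0, 0 and 0.775 CPM in V25, with 10 of 12 starved libraries above all cycling ones (3.71, standard error 0.54, adjusted p = 3.08e-08).

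Of the 19 rows, 12 were called higher in T0-N and 0 lower, against 44.8% of all rows higher and 37.3% lower. The other non-coding rows were higher in 58.1% and lower in 17.2%. The median log2 change was 1.97 over the prl rows, 0.90 over the other non-coding rows and 0.12 over all rows. With no filter on low counts it was 1.18 over 34 prl rows. prl54 had 0.852, 3.37 and 4.96 CPM in T0-N, against 0, 0.464 and 0.846 CPM in V25, with no overlap. Besides the RNAs above, prl58 (1.17), prl34 (1.22), prl4 (1.97), prl47 (2.26) and prl33 (2.79) were called higher. prl43 and prl12 were called on almost no reads in V25. prl43 had 147 counts in T0-N and 2 in V25, a ratio of 54.3 with a 95% interval from 14.8 to 452. prl12 had 31 counts in T0-N and 0 in V25, which makes it at least 7.63-fold higher against a floor of 3 counts over the group. prl56, prl24, prl9, prl13, prl21, prl36 and prl42 were not called. Without replicate 2, 14 prl rows were tested and 7 called higher.

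Over 4 further days without nitrogen at 25°C, fewer of the tested rows were called than in the comparisons above, and no common direction held under every setting. prl15 had 37.7, 50.1 and 64.1 CPM in T4D25, against 40.8, 68.5 and 97.1 CPM in T0-N, so the groups overlapped widely and prl15 stayed the leading RNA of the family. The log2 change was -0.49 (standard error 0.12, adjusted p = 0.000841). prl58 had 4.31, 8.63 and 12.1 CPM in T4D25, against 7.53, 17.4 and 31.0 CPM in T0-N (-1.08, standard error 0.17, adjusted p = 8.22e-07). prl36 had 0, 0.578 and 1.64 CPM in T4D25, against 0, 0.681 and 2.79 CPM in T0-N (-0.79, standard error 0.34, adjusted p = 0.0436). Only prl56 was called higher, with 0, 1.57 and 2.57 CPM in T4D25, against 0, 0.865 and 1.43 CPM in T0-N (0.87, standard error 0.33, adjusted p = 0.0235).

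In all, 1 row was called higher (23.9% of all rows) and 6 lower (28.5% of all rows). The other rows called lower were prl9 (-1.69), prl33 (-1.29) and prl51 (-0.55). The median change was -0.11 over the 19 prl rows and -0.02 over all rows, but 0.01 over the prl rows under DESeq2 and 0.23 without replicate 2. These calls leaned on replicate 2, without which 1 of 14 tested rows was called, the log2 change of prl15 was -0.26 (adjusted p = 0.247), that of prl56 0.67 (0.339) and that of prl36 0.05 (0.999966). Without replicate 1, 3 of 15 rows were called. T4D25 and T4D36.5 were split from the T0-N cultures, and the tests treat them as independent.

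The largest changes within quiescence came with 4 days at 36.5°C. prl34 had 10.9, 33.3 and 74.4 CPM in T4D36.5, against 0.455, 1.68 and 6.02 CPM in T4D25, and prl4 had 4.15, 8.73 and 19.2 CPM in T4D36.5, against 0.539, 1.71 and 2.57 CPM in T4D25. prl36 had 1.96, 3.38 and 5.63 CPM in T4D36.5, against 0, 0.578 and 1.64 CPM in T4D25. In all of these the lowest heated library was above the highest unheated one. The log2 fold changes were 4.16 for prl34 (standard error 0.24, adjusted p = 2.74e-20), 2.62 for prl4 (0.24, 2.65e-13) and 2.39 for prl36 (0.30, 1.43e-09). prl56 had 1.67, 5.46 and 8.63 CPM in T4D36.5, against 0, 1.57 and 2.57 CPM in T4D25, and 11 of its 12 heated libraries were above all unheated ones (1.99, standard error 0.26, adjusted p = 2.69e-09). prl51 had 11.0, 12.8 and 24.7 CPM in T4D36.5, against 2.26, 4.02 and 8.91 CPM in T4D25, and prl54 had 5.47, 14.8 and 23.6 CPM in T4D36.5, against 2.41, 3.67 and 6.78 CPM in T4D25. Their log2 fold changes were 1.84 and 1.86.

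prl15 moved the other way. It had 0.553, 1.82 and 3.54 CPM in T4D36.5, against 37.7, 50.1 and 64.1 CPM in T4D25, so that every heated library was far below every unheated one. The log2 change was -4.64 (standard error 0.19, adjusted p = 1.73e-24). Of the 19 rows, 16 were called higher (35.4% of all rows) and prl15 alone lower (33.4% of all rows). The other non-coding rows were higher in 61.9% and lower in 14.5%. Median log2 changes were 1.74 over the prl rows, 0.86 over the other non-coding rows and 0.01 over all rows. With no filter on low counts the median was 0.95 over 34 prl rows. prl24 (-0.10) and prl43 (-0.81, adjusted p = 0.126) were not called, though prl43 was called once replicate number entered as a block (adjusted p = 0.0448). prl58 changed least among the called rows, at 0.56. Without replicate 2, 11 of 14 tested rows were called.

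**Figure D4:**
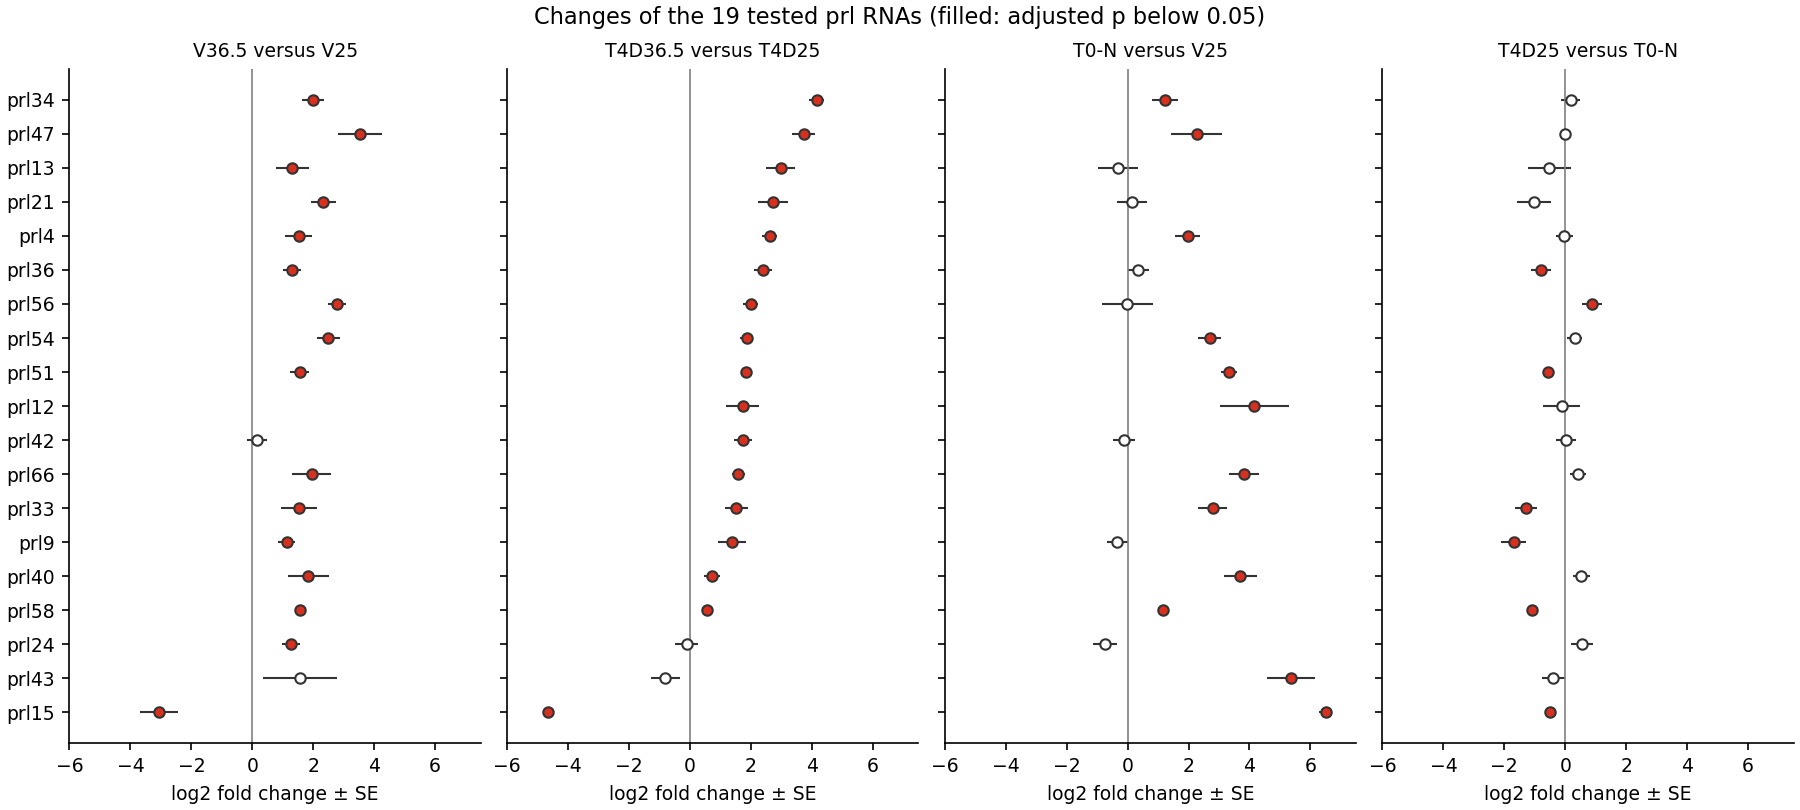
Log2 fold changes with standard errors of the 19 tested prl RNAs in 4 comparisons, filled where the adjusted p was below 0.05 (prl12 is not drawn for V36.5 versus V25, where all libraries were at 0). Most points lie right of 0 in both heat comparisons and in T0-N versus V25, and prl15 lies at -3.06, -4.64, 6.50 and -0.49.

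Both heat comparisons raised most of the tested rows, and whether a row responded alike in quiescent and cycling cells was tested as the difference of its changes in T4D36.5 versus T4D25 and in V36.5 versus V25. Of the 19 rows, 3 were called with a higher signed change in quiescent cells (28.4% of all rows) and 2 with a lower one (32.6% of all rows). The difference on the log2 scale was 2.17 for prl34 (standard error 0.55, adjusted p = 0.000754), 1.58 for prl42 (0.46, 0.00307) and 1.10 for prl36 (0.45, 0.0334). It was -1.004 for prl58 (0.25, 0.000676) and -1.37 for prl24 (0.49, 0.0143). prl42 is the clearest case of a response in 1 setting, with 2.60, 5.99 and 11.4 CPM in T4D36.5, against 0.848, 2.08 and 3.13 CPM in T4D25, but 1.00, 1.91 and 3.67 CPM in V36.5, against 0, 1.99 and 4.02 CPM in V25. prl24 had 0, 1.13 and 2.76 CPM in T4D36.5, against 0.424, 1.42 and 2.697 CPM in T4D25, and 1.00, 3.01 and 5.58 CPM in V36.5, against 0, 1.41 and 4.04 CPM in V25. Leaving out a replicate ended the call of prl36 (any of the 3), prl24 (replicate 1 or 2) and prl34 (replicate 2, difference 2.05, adjusted p = 0.0534), while the calls of prl58 and prl42 held. With the replicate block prl43 was called as well (-2.57, adjusted p = 0.0429). The 2 exposures differ in length and medium, so the difference is between whole treatments.

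The comparison of G1_36.5 with V36.5 asked what the arrest adds at the same temperature. prl24 had 6.08, 8.36 and 10.1 CPM in G1_36.5, against 1.00, 3.01 and 5.58 CPM in V36.5, and the groups did not overlap (log2 fold change 1.19, standard error 0.18, adjusted p = 7.83e-06). prl36 had 2.60, 4.55 and 5.75 CPM in G1_36.5, against 1.20, 2.06 and 2.58 CPM in V36.5, again without overlap. prl50 had 1.33, 2.35 and 3.90 CPM in G1_36.5, against 0, 0.642 and 2.00 CPM in V36.5 (1.63, standard error 0.25, adjusted p = 1.02e-05). prl13 (1.45, standard error 0.22, adjusted p = 5.13e-06) and prl47 (1.13, standard error 0.26, adjusted p = 0.00071) were also higher, with 7 and 5 of 12 arrested libraries above all of V36.5. Of the 15 rows tested, 10 were higher (34.1% of all 6219 rows) and 0 lower (34.5% of all rows), while other non-coding rows were higher in 69.3% and lower in 5.05%. prl58 reached its highest level of any condition here, with 25.0, 34.1 and 47.9 CPM in G1_36.5, against 15.7, 21.7 and 28.3 CPM in V36.5, and a log2 fold change of 0.57. prl34 had 1.86, 3.01 and 5.76 CPM in G1_36.5, against 1.40, 2.98 and 5.22 CPM in V36.5, and was not called.

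The strains were compared without their genotypes, by a test of any difference among the 4 within a condition. In T4D36.5, 3 of the 10 prl rows tested differed among strains, where 25.7% of all rows and 29.4% of the other non-coding rows did. The share of members was thus close to that of other rows, and the values that follow describe only the RNAs named. prl34 averaged 23.9 ± 11.9 CPM in strain 86, 59.7 ± 18.2 CPM in strain 92, 59.8 ± 23.8 CPM in strain 93 and 17.2 ± 6.13 CPM in strain 97 (SD, n = 3 each), with adjusted p = 0.00661. prl4 averaged 5.71 ± 1.72 CPM in strain 86, 16.0 ± 3.50 CPM in strain 92, 13.7 ± 5.23 CPM in strain 93 and 6.82 ± 2.56 CPM in strain 97 (adjusted p = 0.014). prl66, named after its values were seen, averaged 6.64, 12.7, 12.8 and 5.99 CPM in strains 86, 92, 93 and 97 (adjusted p = 0.0246). In each of the 3 RNAs strains 92 and 93 had the higher means and strains 86 and 97 the lower ones. The same libraries of strains 92 and 93 also held 5.14% to 11.7% spike-in counts and 1173880 to 2592589 gene counts, against 1.83% to 5.05% and 1339415 to 4617602 in strains 86 and 97, and the part of this in the strain differences was not tested. Without replicate 2 none of the 3 was called, and without replicate 3 prl4 was not (adjusted p = 0.0668).

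**Figure D5:**
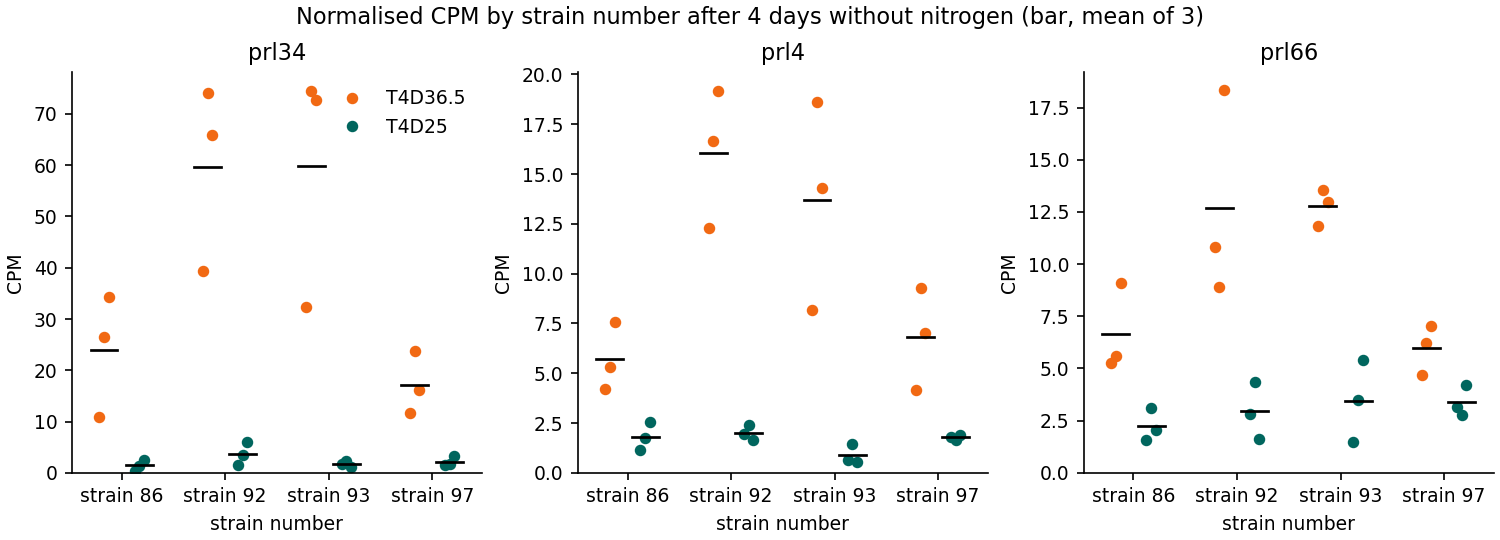
CPM of prl34, prl4 and prl66 in each library of T4D36.5 (left within each strain) and T4D25 (right), by strain number, with 3 libraries per strain and lines at the means. In T4D36.5 strains 92 and 93 have the higher means, for prl34 59.7 and 59.8 CPM against 23.9 and 17.2 CPM in strains 86 and 97.

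The summed CPM of the family in T4D36.5 averaged 109 ± 29.7 in strain 86, 178 ± 37.4 in strain 92, 176 ± 40.9 in strain 93 and 117 ± 11.4 in strain 97 (SD, n = 3 each). These sums include prl34, whose strain means are given above, and the sum without prl34 was not computed. In G1_36.5, prl21 alone of 16 tested rows was called (10.9% of all rows), averaging 3.65, 3.21, 1.34 and 2.21 CPM in strains 82, 83, 84 and 85 (adjusted p = 0.0215), and the call was lost without any of the 3 replicates. In V25, V36.5, T0-N and T4D25 edgeR called 0 of 1, 8, 10 and 9 tested rows, where 19.1%, 6.31%, 0.923% and 1.8% of all rows were called. At an unadjusted p below 0.05 there were 0, 1, 1 and 0 such rows, and neither the likelihood ratio test nor DESeq2 called any in V36.5 or T0-N. With the replicate block prl15 and prl34 were called in T0-N.

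Whether a response to a growth condition itself depended on strain was tested by interaction, and edgeR called 0 of 19 prl rows in all of the 4 comparisons among the 60 libraries. All rows were called in 1.94% for V36.5 versus V25, 10.3% for T0-N versus V25, 0.379% for T4D25 versus T0-N and 9.72% for T4D36.5 versus T4D25. At an unadjusted p below 0.05 there were 2, 1, 0 and 2 prl rows, the likelihood ratio test called 2, 1, 0 and 0, and DESeq2 called 0, 0, 0 and 1. With the replicate block 3 rows (prl34, prl4 and prl58) were called for T4D36.5 versus T4D25. Among rows called in a growth comparison, the change had 1 sign in all 4 strains for 15 of 16 rows in V36.5 versus V25, 12 of 12 in T0-N versus V25, 6 of 7 in T4D25 versus T0-N and 16 of 17 in T4D36.5 versus T4D25. These rows were called on the mean of the same 4 strains, which favours a shared sign. The share over all called rows was not counted, so the signs are no separate evidence of agreement among strains.

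The coding genes opposite prl RNAs moved in either direction. There were 12 pairs of a tested prl row and an overlapping coding gene on the other strand. Among them prl4 was paired with both mad2 and ltc1. Both partners were called in 8 pairs for T0-N versus V25, 5 of them in 1 direction. For T4D36.5 versus T4D25 both were called in 7 pairs, 3 of them in 1 direction. Of all rows, 44.8% were called higher and 37.3% lower in the first comparison, and 35.4% and 33.4% in the second. prl15 lies over 553 bases of crt10, whose log2 change was 1.26 in T0-N versus V25 and -0.08 (adjusted p = 0.606) in T4D36.5 versus T4D25, where prl15 changed by 6.50 and -4.64. SPBC36.01c, opposite prl34, changed by -1.83 and 1.05 in the same comparisons. hus1, a subunit of the DNA damage checkpoint clamp that lies opposite 366 bases of prl54, changed by -1.58 and 0.49. mad2, of the spindle checkpoint, shares 20 bases with prl4 and changed by 2.03 and -0.35.

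Genes of nuclear and cytoplasmic RNA decay, which process or degrade non-coding transcripts, were counted beside the family, 36 of 37 listed genes being tested. In V36.5 versus V25, 5 were higher and 19 lower (35.4% and 28% of all rows), with ago1 at 0.92 and dcr1 at 0.75 (Argonaute and Dicer of RNA interference), cti1 at -0.70 and mmi1 at -0.60. In T0-N versus V25, 5 were higher and 24 lower (44.8% and 37.3% of all rows), with the helicases sen1 at -2.07 and dbl8 at -1.48, red5 at 1.42 and the exosome nuclease dis3 at -1.35. In T4D25 versus T0-N the split was 11 higher and 10 lower (23.9% and 28.5% of all rows). The largest changes there were the decapping subunit dcp1 at -0.70, rrp40 at -0.62, dcr1 at 0.55 and dis3 at 0.50. For T4D36.5 versus T4D25 the split was 15 higher and 9 lower (35.4% and 33.4% of all rows). Here air1 stood at -1.02, iss10 at -0.81, seb1 at 0.76 and erh1 at -0.68. For G1_36.5 versus V36.5 the split was 5 higher and 15 lower (34.1% and 34.5% of all rows). The exosome helicase mtr4 stood at -0.79, cti1 at 0.62, dis3 at -0.54 and dhp1 at -0.50. Their part in the levels of prl RNAs was not tested.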

How the data were processed

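RNA from biological triplicates was depleted of ribosomal RNA, made into stranded libraries and sequenced as paired reads. The authors aligned reads to ASM294v2 with STAR 2.7.10a and deposited counts per annotated gene from featureCounts 1.5.1, without normalization. Libraries were grouped by growth condition, strain number and replicate in their labels. Counts of gene rows, with ERCC spike-in RNAs left out (1.46% to 11.7% of a starved library and at most 0.00118% of any other), were filtered with filterByExpr, scaled by TMM factors and tested in edgeR 4.0.16 under R 4.3.3 (quasi-likelihood F tests, Benjamini-Hochberg adjustment over all rows tested, threshold 0.05). Standard errors are the size of the log2 change over the square root of F. Growth comparisons and interactions used the 60 libraries of strains 86, 92, 93 and 97 averaged over strains, the G1 comparison 24 libraries, and strain tests the 12 of a condition.

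The members and gene lists were chosen with earlier results of these data known, and the difference between the heat responses was added after seeing the data. Named in full are up to 4 largest rises and falls per growth comparison whose average log2 CPM reached 1 and which, except for the G1 comparison, had 1 direction in the 4 strains, the 5 rows highest per kilobase, and the 2 smallest p of each strain test where called. Other members were named after their values were seen. The pairing comes from the replicate number, which the labels give as a batch. Deviations of libraries with the same number had a mean correlation of 0.333 within a condition and 0.220 between conditions, against -0.164 and -0.108 for different numbers. Alternatives were the likelihood ratio test, DESeq2 1.42.0, its size factors in edgeR, no filter, a minimum of 10 counts in each library, the replicate block, no ribosomal RNA genes, ERCC rows included, and each replicate left out. The procedure was tested on simulated data. The sequence of prl15 is not reported here.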

Additional observations from a re-analysis of the deposited data

Results flagged for a closer look

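For 5 of 19 tested prl RNAs the change with heat differed between quiescent and cycling cells by a test of the difference itself, added after seeing the data (T4D36.5 versus T4D25 minus V36.5 versus V25, log2 scale, edgeR's quasi-likelihood test). The differences were 2.17 for prl34, 1.58 for prl42, 1.10 for prl36, -1.004 for prl58 and -1.37 for prl24. Of all rows, 28.4% were called with a higher signed change in quiescent cells and 32.6% with a lower one. The share of members called is thus no larger than that of all rows. Leaving out a replicate ended the calls of prl34, prl36 and prl24. What separates these RNAs from the other 14 tested members was not tested.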

How the results depend on the processing

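Counts of called prl rows, leaving out 1 replicate at a time, ranged from 10 to 15 for V36.5 versus V25, 7 to 11 for T0-N versus V25, 1 to 7 for T4D25 versus T0-N, 11 to 14 for T4D36.5 versus T4D25, 2 to 4 for the difference of the heat responses, 0 to 1 for strain dependence of T4D36.5 versus T4D25, 0 for any strain difference in G1_36.5 and 0 to 2 in T4D36.5. Fewer rows passed the filter in these fits (14 and 15 of 19 without replicate 2 and 1). For G1_36.5 versus V36.5 18 rows were called unfiltered and 1 with a minimum of 10 counts in each library, which leaves no prl row in the 60 libraries. With no filter, 1 row was called for strain in V25. For strain in G1_36.5, 2 rows were called by the likelihood ratio test, by DESeq2 and with the replicate block, and 0 with at least 10 counts. The likelihood ratio test called 2 rows for strain dependence of V36.5 versus V25 and 1 for that of T0-N versus V25, and DESeq2 called 1 and the replicate block 3 for that of T4D36.5 versus T4D25. The block also gave 2 rows for strain in T0-N, and otherwise moved no count by over 1.5 times. The only named change to reverse was prl36 in T4D25 versus T0-N, from -1.09 to 0.0453 with replicates left out, and its call was also lost under DESeq2 (-0.77), DESeq2 size factors, no filter and no ribosomal RNA genes. The causes were not tested. Of the 30 named results, 30 held under the likelihood ratio test, the replicate block and ERCC rows included, 29 under DESeq2, and 25, 21 and 27 without replicate 1, 2 and 3. The median change of T4D25 versus T0-N was -0.11, but 0.01 under DESeq2 and 0.23 without replicate 2. Low counts limit this family, since many members have fewer than 10 counts in a library.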
